A study of Mus musculus with 9 samples.

Results

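Eosinophil ribonucleases, granule proteins and receptors were followed in neutrophils sorted from mouse skin lesions and from the skin around them. The set comprised the ribonuclease genes Ear1, Ear2, Ear3, Ear10 and Ear12, the granule genes Epx and Prg2, and the receptor genes Ccr3 and Il5ra. Members were found by the gene name that the array gives each probe, leaving out control probes. Of the 9 genes, 8 had a probe, with 1 probe each, and no probe carried the name Ear3. These 8 probes were among 55681 probes with 34797 gene names.

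All samples were Gr-1bright neutrophils, sorted by flow cytometry to a purity above 98%, from FVB/N mice given DMBA, a chemical carcinogen, at the age of 6 and 13 weeks and PMA, a tumor promoter, repeatedly from week 1 until week 18 to 20. Papilloma skin (2 arrays) was the skin next to papillomas, the precancerous lesions, and tumor skin (2 arrays) was the skin next to tumors, the carcinomas. Papilloma (3 arrays) and tumor (2 arrays) were the lesions themselves. Lesions were dissociated with more enzymes than skin, so tissue and dissociation cannot be told apart. No group was left untreated, so skin here is carcinogen-treated skin beside a lesion. Each array held RNA pooled from mice, and the p-values measure only the spread between arrays, whose number limits the precision of every value. The labels give no age at sampling.

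Eosinophils are granulocytes that store cationic proteins in their granules and release them on activation. The mouse Ear genes encode small secreted ribonucleases of the RNase A superfamily, which form a large cluster of similar genes on chromosome 14. Epx encodes eosinophil peroxidase and Prg2 the major basic protein, both abundant in eosinophil granules and made mainly while the cells mature in bone marrow. Ccr3 encodes the receptor for eotaxins, which draw eosinophils into tissue, and Il5ra encodes the ligand-binding chain of the receptor for interleukin 5, the main growth and survival factor of the lineage.

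The probes of the ribonuclease genes are shown because they decide how far the genes can be told apart. Each probe is 60 bases long, and the deposited files place it on mm9. The Ear10 probe lies at chr14:44500615-44500674 on the minus strand, the Ear12 probe at chr14:44680899-44680958 on the plus strand and the Ear1 probe at chr14:44396709-44396768 on the minus strand. In the first and second sequences capitals mark a run of 23 bases that both hold, and in the third they mark a run of 19 bases that Ear1 shares with Ear12.
Ear10: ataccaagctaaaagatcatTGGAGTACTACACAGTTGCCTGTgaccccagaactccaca
Ear12: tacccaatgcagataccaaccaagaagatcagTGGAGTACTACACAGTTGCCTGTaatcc
Ear1: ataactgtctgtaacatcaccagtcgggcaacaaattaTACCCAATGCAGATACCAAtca
Laid side by side without gaps at a limited range of shifts, the Ear10 and Ear12 probes were identical at up to 42 of 60 bases. The Ear1 and Ear12 probes were identical at up to 20, but that range did not reach their shared run of 19 bases. The Ear2 probe, at chr14:44681119-44681178 on the plus strand, started 161 bases after the end of the Ear12 probe and shared no run longer than 5 bases with the Ear1, Ear10 or Ear12 probes. Ear genes outside the set came closer in part, with 46 identical bases between the Ear1 and Ear7 probes, 44 between Ear12 and Ear4, and 40 between Ear2 and Ear6. Signals of single Ear genes are therefore uncertain, since a transcript of one gene may bind the probe of another, and this was not tested. The Ear12 and Ear2 probes, being so close on the same strand, may also read the same transcript, which was not tested either.

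The other probes lay on separate chromosomes, Epx at chr11:87678288-87678347, Prg2 at chr2:84822799-84822858, Ccr3 at chr9:123945225-123945284 and Il5ra at chr6:106660378-106660437. An exon, intron or UTR annotation of mm9 was not used here.

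Promoters are shown for Ear2 and Ear10, because the Ear genes moved together and their start regions are alike. RefSeq promoters on GRCm38.p6 were matched for 6 members (Ear1, Ear2, Ear10, Epx, Ccr3 and Il5ra). The 250 bases before the start of Ear2 are chr14:44102404-44102653 on the plus strand and those of Ear10 are chr14:43923597-43923846 on the minus strand, and capitals mark a run of 95 bases that Ear1, Ear2 and Ear10 all hold.
Ear2: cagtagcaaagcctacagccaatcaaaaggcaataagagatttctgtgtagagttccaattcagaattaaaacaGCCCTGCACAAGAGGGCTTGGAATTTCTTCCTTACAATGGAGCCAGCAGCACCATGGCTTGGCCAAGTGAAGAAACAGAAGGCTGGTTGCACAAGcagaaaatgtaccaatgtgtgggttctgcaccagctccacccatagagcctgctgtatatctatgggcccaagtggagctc
Ear10: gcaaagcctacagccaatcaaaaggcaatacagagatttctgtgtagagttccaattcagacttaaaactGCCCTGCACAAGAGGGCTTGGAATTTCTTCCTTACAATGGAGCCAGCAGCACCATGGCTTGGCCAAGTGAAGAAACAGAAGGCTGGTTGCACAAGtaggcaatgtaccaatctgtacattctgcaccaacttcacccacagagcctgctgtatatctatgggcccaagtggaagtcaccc
The Ear1 promoter, at chr14:43819640-43819889 on the minus strand, was identical to that of Ear2 at 246 of 248 aligned bases (99.2%). Ear10 was identical to Ear1 at 93.9% and to Ear2 at 94.3% of aligned bases. Motifs were searched on both strands as letters only. TTGCNNAA, the core of C/EBP sites, was found in Ear1, Ear2 and Ear10, each time inside the shared run, and in 9.6% of all 32851 promoters of this length. GATAA, the core of GATA sites, was found in Ccr3 and Il5ra and in 22.6% of all promoters. GAGGAA, a core of PU.1 sites, was found in Ccr3 and in 23.3% of all promoters. A match is a description of the letters and not a shown binding site.

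Levels below are log2 values of the table that the authors deposited, with 1 value per probe and array, and a probe is called well above background by the flag of the scanner file with the same label. The 4 ribonuclease probes, Ccr3 and Il5ra were well above background on all 9 arrays, Prg2 on 4 and Epx on 3. On 3 arrays the signal range was compressed (papilloma skin 1, tumor skin 1 and tumor 1), with a spike-in slope of 0.678 to 0.894 and 90.7% to 95.04% of spots well above background, against 1.04 to 1.06 and 44.2% to 64.2% on the other 6. In addition, the column papilloma skin 1 ranked probes like the scanner file of tumor 2 (Spearman's rho 0.924) more than like its own (0.588), the column tumor 1 did the same (0.947 against 0.827), and the columns papilloma 2 and papilloma 3 were each closest to the other's file (0.981 and 0.959). For these 4 columns the flag may belong to another sample. Results are also given from the scanner files and without papilloma skin 1 and tumor 1, whereas papilloma 2 and papilloma 3 belong to the same group and were not left out together.

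The sorted cells carried the markers of their label. Of 16 probes for neutrophil genes, 15 were well above background on all 9 arrays, and the alarmin genes S100a8 and S100a9 had mean log2 levels of 18.1 and 18.6. Ly6g, whose protein carries the Gr-1 epitope, had a mean log2 level of 10.6 in papilloma skin and 12.4 in tumor skin, against 9.55 in papilloma and 10.3 in tumor.

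In both lesions, 6 of the 8 member probes were lower than in the skin around them, namely Ear1, Ear2, Ear10, Ear12, Ccr3 and Il5ra. The decrease was 3.86- to 14.6-fold between papilloma and its skin and 3.13- to 10.05-fold between tumor and its skin. A call required a limma p of 0.05 or less after Benjamini-Hochberg adjustment over all probes, a change of 1 or more on the log2 scale in either direction, and 6 or more as the mean log2 level over the arrays. Of all probes, 1.00% were called lower in the papilloma stage, papilloma against its skin, and 1.51% in the tumor stage, tumor against its skin. No member probe was called higher. The median log2 fold change of the 8 probes was -2.51 in the papilloma stage and -2.10 in the tumor stage, beside 0.01 and 0.05 over the 28871 probes that reached the level minimum. In sorted bulk RNA, fewer cells of a type and less RNA per cell cannot be told apart.

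**Figure D1:**
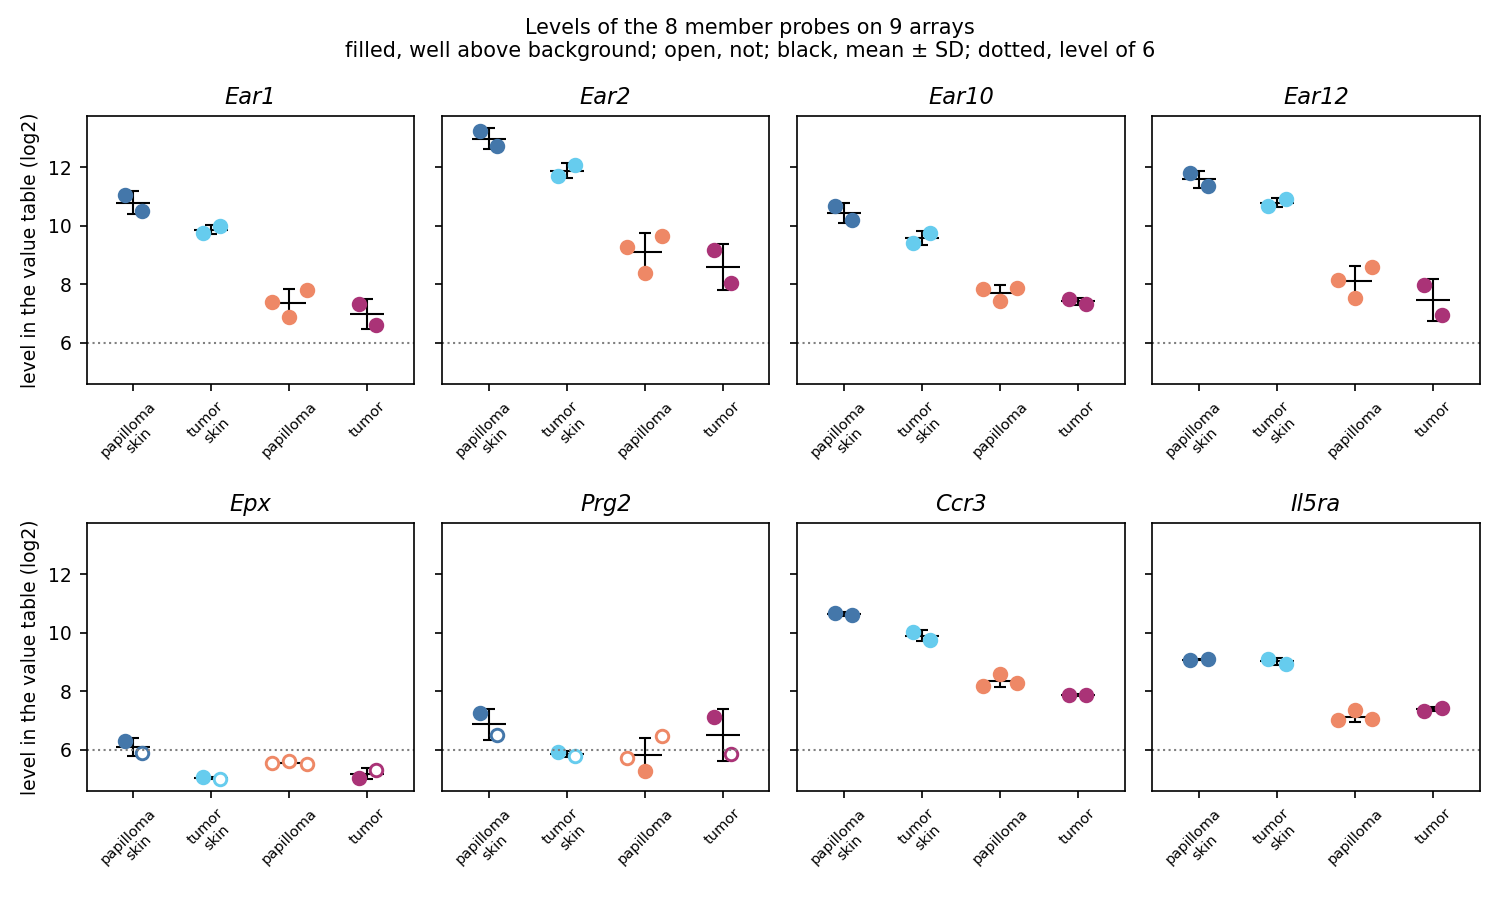
Log2 level in the deposited value table (vertical axis) of each member probe on each of the 9 arrays, by group, with filled points well above background, open points not, and black bars for mean ± SD. For Ear1, Ear2, Ear10, Ear12, Ccr3 and Il5ra all 5 lesion arrays lie below all 4 skin arrays, whereas Epx and Prg2 lie near the dotted level minimum of 6.

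Among the ribonucleases, Ear2 had log2 levels of 13.22 and 12.72 in papilloma skin, 11.69 and 12.06 in tumor skin, 9.27, 8.38 and 9.65 in papilloma, and 9.15 and 8.02 in tumor. Every lesion array was below every skin array, with a gap of 2.05 between the lowest skin and the highest lesion array. Ear2 fell by 3.87 on the log2 scale in the papilloma stage (SE 0.427, limma adjusted p = 0.00212) and by 3.29 in the tumor stage (SE 0.468, limma adjusted p = 0.00647). Ear2 encodes an eosinophil-associated ribonuclease.

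Ear1, a further secreted ribonuclease of the cluster, had log2 levels of 11.06 and 10.51 in papilloma skin, 9.75 and 9.97 in tumor skin, 7.39, 6.87 and 7.80 in papilloma, and 7.33 and 6.61 in tumor. Skin and lesion arrays were again apart, here by 1.95. Ear1 fell by 3.43 in the papilloma stage (SE 0.317, limma adjusted p = 0.000935) and by 2.89 in the tumor stage (SE 0.347, limma adjusted p = 0.00362), both on the log2 scale.

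Ear12 had log2 levels of 11.79 and 11.36 in papilloma skin, 10.68 and 10.89 in tumor skin, 8.14, 7.54 and 8.59 in papilloma, and 7.97 and 6.95 in tumor. The groups followed the order seen for Ear2, and the gap between skin and lesion arrays was 2.09. On the log2 scale Ear12 fell by 3.49 (SE 0.365, limma adjusted p = 0.00165) in the papilloma stage and by 3.33 (SE 0.400, limma adjusted p = 0.00365) in the tumor stage.

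Ear10 had log2 levels of 10.68 and 10.19 in papilloma skin, 9.40 and 9.75 in tumor skin, 7.85, 7.41 and 7.87 in papilloma, and 7.49 and 7.33 in tumor. Its skin and lesion arrays were 1.53 apart, the smallest gap among the 4 ribonuclease probes. It fell by 2.73 (SE 0.215, limma adjusted p = 0.000496) and by 2.17 (SE 0.236, limma adjusted p = 0.00259) on the log2 scale. Across the 9 columns, Pearson's r between the 4 ribonuclease probes was 0.987 to 0.998, a description over arrays that share 4 groups. Sequence was shared between the Ear10 and Ear12 probes and in part between Ear1 and Ear12. The Ear2 probe shared no long run with these 3, but it lies 161 bases after the Ear12 probe on the same strand. Whether the Ear2 and Ear12 probes read separate transcripts was not tested.

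The receptor genes were lower in the lesions as well. Ccr3, the eotaxin receptor, had log2 levels of 10.69 and 10.59 in papilloma skin, 10.04 and 9.76 in tumor skin, 8.16, 8.59 and 8.29 in papilloma, and 7.88 and 7.85 in tumor. All 4 groups were apart, in the order papilloma skin, tumor skin, papilloma and tumor. Ccr3 fell by 2.29 in the papilloma stage (SE 0.164, limma adjusted p = 0.000325) and by 2.03 in the tumor stage (SE 0.180, limma adjusted p = 0.00131), on the log2 scale.

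Il5ra, the interleukin 5 receptor chain, had log2 levels of 9.06 and 9.09 in papilloma skin, 9.10 and 8.94 in tumor skin, 7.01, 7.34 and 7.03 in papilloma, and 7.33 and 7.43 in tumor. Unlike the other 5 called probes, its skin groups overlapped. It fell by 1.95 (SE 0.147, limma adjusted p = 0.000428) and by 1.64 (SE 0.161, limma adjusted p = 0.00174) on the log2 scale.

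Neither granule protein gene was called. At an unadjusted p under 0.05 limma gave all 8 member probes in the papilloma stage, Epx and Prg2 included, and 6 in the tumor stage. Of all 55681 probes, 11540 and 14997 were under 0.05 in these stages. The papilloma arrays lay below the papilloma skin arrays for all 8 member probes, and how many of all probes did so was not counted. Epx, eosinophil peroxidase, had log2 levels of 6.31 and 5.88 in papilloma skin, 5.07 and 5.01 in tumor skin, 5.54, 5.62 and 5.51 in papilloma, and 5.04 and 5.32 in tumor. It was not well above background on any papilloma array, and the 3 arrays on which it was flagged were those with a compressed range. Its mean level of 5.48 was under the level minimum, and no fold change is given.

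Prg2, major basic protein, had log2 levels of 7.25 and 6.50 in papilloma skin, 5.93 and 5.77 in tumor skin, 5.72, 5.28 and 6.45 in papilloma, and 7.13 and 5.86 in tumor. It was well above background on 1 array of each group, namely papilloma skin 1, tumor skin 1, papilloma 2 and tumor 1. All of these but papilloma 2 had a compressed range, and the column papilloma 2 was closest to another array's file. The flags therefore say little about whether Prg2 was detected. The spread within tumor was 0.90 (SD, n = 2). The log2 difference was -1.06 (SE 0.442, limma adjusted p = 0.223) in the papilloma stage and 0.64 (SE 0.484, limma adjusted p = 0.438) in the tumor stage, with neither past the threshold. The tumor-stage value was 0.0091 without tumor 1 and 1.28 without tumor 2, and from the scanner files after ComBat the values were -0.02 and -2.19 in the papilloma and tumor stage, so the sign of Prg2 in the tumor stage is not settled. Pearson's r of Prg2 with the 6 called probes was 0.2204 to 0.423 over the 9 columns.

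Taking both stages as 1 contrast, the 6 probes were called lower in lesions than in skin (1.33% of all probes were called lower). Il5ra had the smallest log2 fold change of the 6, at -1.80 (SE 0.109), and Ear2 the largest, at -3.58 (SE 0.317).

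Whether the stages differ was examined next. In tumor versus papilloma limma called 0 of the 8 member probes, and 0.447% of all probes were called in either direction. At an unadjusted p under 0.05 there were 2, Epx and Ccr3, beside 8032 of all 55681 probes. Ccr3 was at -0.48 in tumor versus papilloma (95% interval -0.86 to -0.10, limma adjusted p = 0.250), and its tumor arrays were both below its papilloma arrays in the value table. Over the 6 scanner fits this difference was -0.75 to 0.67 and kept its sign in 1, so its direction depends on the source. For Ear2 the difference was -0.52 (95% interval -1.50 to 0.47) and for Il5ra 0.25 (95% interval -0.09 to 0.59), so differences in either direction lie within these intervals.

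In tumor skin versus papilloma skin limma again called 0 of the 8 member probes, and 0.260% of all probes were called in either direction. At an unadjusted p under 0.05 there were 5, Ear1, Ear2, Ear10, Epx and Ccr3, beside 12656 of all 55681 probes. In the value table both tumor skin arrays were below both papilloma skin arrays for 7 of the 8 probes, the exception being Il5ra. How many of all probes were apart in this way was not counted, so the 7 cannot be set against a background. Ear2 was at -1.09 on the log2 scale (95% interval -2.16 to -0.01, limma adjusted p = 0.216), Ear10 at -0.86 (95% interval -1.40 to -0.32, limma adjusted p = 0.105) and Ccr3 at -0.74 (95% interval -1.15 to -0.33, limma adjusted p = 0.0855). Il5ra was at -0.05 (95% interval -0.42 to 0.31, limma adjusted p = 0.859). This direction did not hold in the scanner files for the ribonucleases. Over the 6 scanner fits the difference between the skins was 0.11 to 0.37 for Ear1 and 0.04 to 0.41 for Ear10. It was -0.03 to 0.75 for Ear2 and -0.15 to 0.33 for Ear12. Ccr3 stayed negative, at -1.72 to -0.44. Il5ra was negative there as well, at -1.47 to -0.23, so its level skin value also depends on the source. The lesion effect itself differed between stages for 0 of the 8 probes by limma, beside 0.0269% of all probes called. It did so for 2, Epx and Prg2, at an unadjusted p under 0.05, beside 8174 of all 55681 probes.

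The arrays lay on 3 slides, the first holding the first array of each group. Within slide 1, the log2 difference of Ear2 was -3.95 between papilloma and its skin and -2.55 between tumor and its skin. Within slide 2 the papilloma stage gave -4.33 for Ear2. The same differences were -2.52, -2.16 and -2.004 for Ccr3 and -2.05, -1.77 and -1.74 for Il5ra. Slide 3 held no skin and lesion of the same stage. When the model of the value table also held the slide, limma called the 6 probes in both stages. Without the columns papilloma skin 1 and tumor 1, which resembled another array's scanner file, limma also called all 6 in both stages, with Ear2 at -3.62 (SE 0.487, limma adjusted p = 0.0334) in the papilloma stage and -3.86 (SE 0.517, limma adjusted p = 0.0290) in the tumor stage. That fit holds 1 papilloma skin and 1 tumor array, which are assumed to vary like the arrays of the other groups.

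Between lesion and skin the scanner files gave the same direction for the 6 probes in both stages, and their sizes differed in part. With the arrays quantile normalized and the slide effect taken out by ComBat, Ear2 was at -2.79 (SE 0.393, limma adjusted p = 0.00918) in the papilloma stage and at -3.87 (SE 0.430, limma adjusted p = 0.0220) in the tumor stage. All 6 probes were called in the papilloma stage. In the tumor stage 4 were called, the ribonucleases, whereas Ccr3 was at -0.54 (SE 0.452, limma adjusted p = 0.578) and Il5ra at -0.27 (SE 0.382, limma adjusted p = 0.740). Without ComBat, 4 other fits of the scanner files called 0 member probes and 0 probes on the whole array in either stage.

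**Figure D2:**
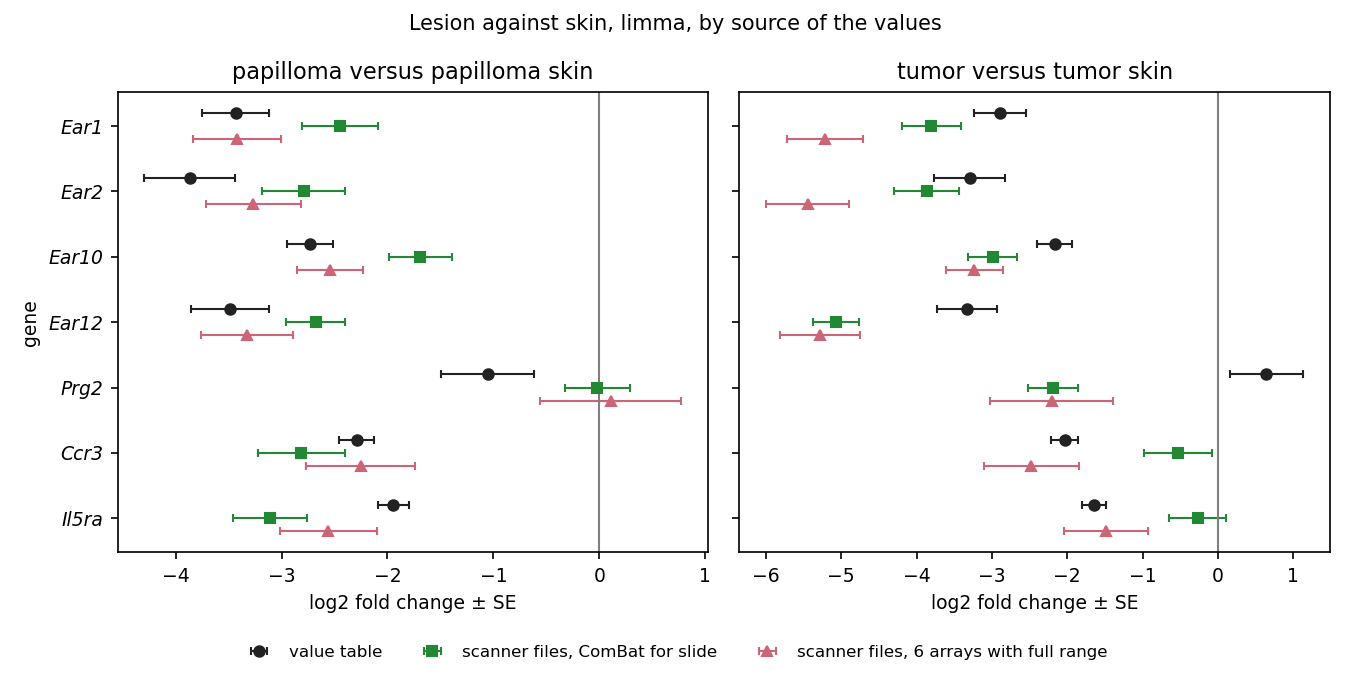
Log2 fold change ± SE (horizontal axes) of the 7 member probes above the level minimum, with papilloma against its skin in one panel and tumor against its skin in the other, from the value table (circles), the scanner files after slide removal (squares) and the 6 scanner files with a full signal range (triangles). The 4 Ear probes lie left of 0 from each source, and the squares of Ccr3 and Il5ra lie near 0 in the tumor stage, at -0.54 and -0.27.

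For the receptors the scanner file of tumor 1 was unlike that of tumor 2. After quantile normalization alone, the scanner file of tumor 1 gave Ccr3 a log2 level of 10.03 and that of tumor 2 gave 7.85, against 9.99 on both tumor skin arrays. For Il5ra the levels were 8.90 and 7.77, against 8.99 and 9.04. Without slide correction the tumor-stage values were -1.05 for Ccr3 and -0.68 for Il5ra, larger decreases than after ComBat. After ComBat, tumor 1 and tumor 2 were at 9.64 and 8.59 for Ccr3 and at 8.66 and 8.30 for Il5ra. What lies behind the small values was not tested. In the value table the column tumor 1 held 7.88 for Ccr3 and 7.33 for Il5ra, close to tumor 2. Using only the 6 arrays with a full range, Ccr3 was at -2.48 (SE 0.630, limma adjusted p = 0.269) and Il5ra at -1.49 (SE 0.561, limma adjusted p = 0.372) in the tumor stage, in a fit with 2 residual degrees of freedom that called no probe on the array. That fit compares 1 tumor skin array with 1 tumor array and takes their spread from the papilloma arrays.

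**Figure D3:**
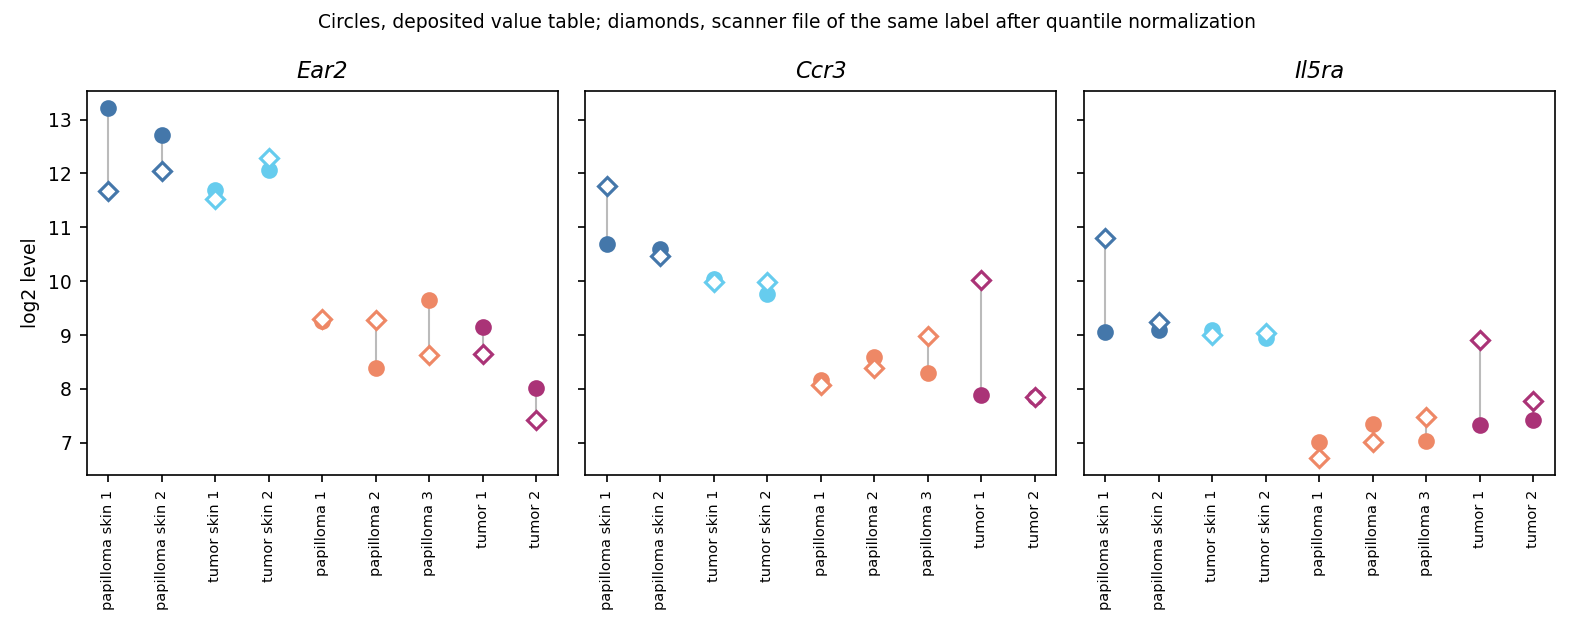
Log2 level of Ear2, Ccr3 and Il5ra (vertical axis) on each of the 9 arrays, with circles for the deposited value table and diamonds for the scanner file of the same label after quantile normalization. On tumor 1 the diamonds of Ccr3 and Il5ra are at 10.03 and 8.90 and the circles at 7.88 and 7.33, and on papilloma skin 1 the diamonds are at 11.76 and 10.80 and the circles at 10.69 and 9.06.

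Other genes of the eosinophil pathway were mixed. Of 42 listed genes besides the members, 41 were on the array with 54 probes, of which 13 were called lower and 5 higher in the papilloma stage and 10 lower and 4 higher in the tumor stage. Of all probes, 2.18% and 2.71% were called higher in these contrasts. The median log2 fold change of the 47 probes at the level minimum was -0.28 in the papilloma stage and -0.35 in the tumor stage. In both stages 9 probes of 8 genes were lower (Alox15, Ear6, Ear7, Ear11, Emr1, Gata1, Itga4 and Itgb7) and 2 probes, of Adora3 and Id1, were higher. A second Adora3 probe was at -0.54 and 0.28 in the papilloma and tumor stage and was not called. The called Adora3 probe was at 2.56 and 0.19 from the scanner files after ComBat.

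By role, the other ribonucleases Ear11, Ear6 and Ear7 were lower, Ear11 at -3.16 (SE 0.277, limma adjusted p = 0.000782) and -2.72 (SE 0.304, limma adjusted p = 0.00294) in the papilloma and tumor stage, whereas Ear4 and Ear5 did not reach the level minimum. Gata1, the transcription factor that the eosinophil lineage requires, was at -2.07 (SE 0.207, limma adjusted p = 0.00132) and -1.69 (SE 0.227, limma adjusted p = 0.00533). Alox15, the lipoxygenase abundant in eosinophils, was at -3.41 (SE 0.204, limma adjusted p = 0.000201) and -1.46 (SE 0.224, limma adjusted p = 0.00838). The Alox15 means in papilloma and tumor (5.77 and 5.46) and the Gata1 mean in tumor (5.53) lay under 6. The sizes of these decreases are therefore uncertain. Of the surface proteins, Emr1, an adhesion receptor that is also a macrophage marker, was at -3.09 (SE 0.157, limma adjusted p = 0.000121) and -2.04 (SE 0.172, limma adjusted p = 0.00108) by its brighter probe. The adhesion chain Itgb7 was at -2.21 (SE 0.370, limma adjusted p = 0.0116) and -2.15 (SE 0.405, limma adjusted p = 0.0167). The scanner files after ComBat gave Itgb7 -0.22 and -2.28, so its papilloma-stage decrease was small there.

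Members of the list that moved the other way included Siglec5, the array's name for the gene of the eosinophil lectin Siglec-F, both probes of which rose in tumor against its skin. They were at 1.38 (SE 0.245, limma adjusted p = 0.0139) and 1.59 (SE 0.262, limma adjusted p = 0.0104), and at -0.18 and -0.40 without passing the test in papilloma versus papilloma skin. Id1, a transcriptional inhibitor, rose by 1.15 (SE 0.210, limma adjusted p = 0.0174) and 1.43 (SE 0.231, limma adjusted p = 0.0101). The eotaxins Ccl11 and Ccl24, the ligands of Ccr3, were not called in either stage, and the probe of Il5, the ligand of Il5ra, had a mean level of 5.57, under the minimum. The alarmin receptor gene Il1rl1 had 3 probes, all called lower in the papilloma stage, the brightest at -2.17 (SE 0.188, limma adjusted p = 0.000758), and none called in the tumor stage. From the scanner files after ComBat the same 3 probes were at 0.22 to 0.45 in the papilloma stage, so the direction of Il1rl1 turned with the source. Of the 18 list probes called in the papilloma stage these were the 3 that turned, and of the 14 called in the tumor stage 0 did. In tumor versus papilloma the list had 3 probes called lower (Il4, Il13 and Gata2), and in tumor skin versus papilloma skin 3 (Alox15, Il1rl1 and Emr1).

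**Figure D4:**
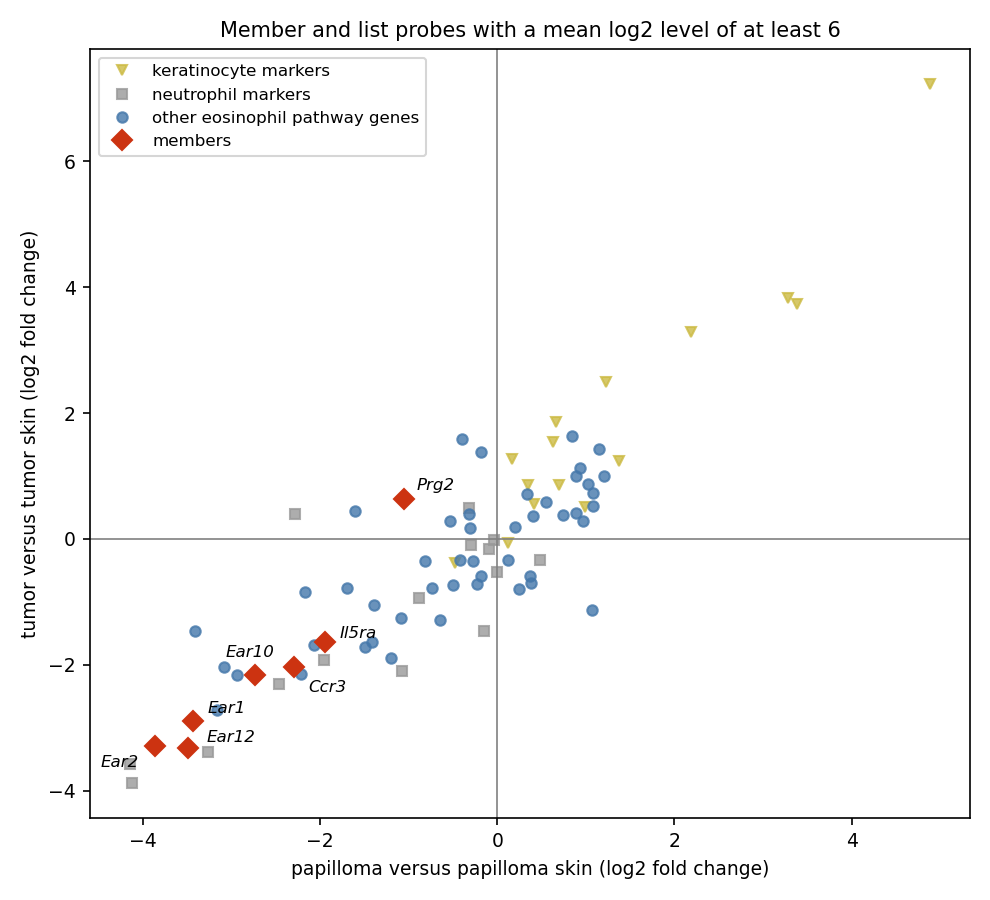
Log2 fold change in papilloma versus papilloma skin (horizontal axis) against tumor versus tumor skin (vertical axis) for 7 member probes and for the probes of 3 lists whose mean log2 level reached 6. The 6 called members lie at lower left with some neutrophil granule genes, Camp, Ltf, Mmp8 and Ngp among them, and some other eosinophil genes, Prg2 lies at -1.06 and 0.64, and keratinocyte markers extend to upper right.

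No probe of the wider RNase A family passed the test. Of 17 listed genes, which include the angiogenins and the ribonuclease inhibitor Rnh1, 13 were on the array with 14 probes. Limma called 0 of these probes in either stage, with 2 in the papilloma and 5 in the tumor stage at an unadjusted p under 0.05. Of all 55681 probes, 11540 and 14997 were under 0.05 in these stages. The median log2 fold change of the 7 probes at the level minimum was -0.11 and -0.17. Rnase4 was at -0.44 (SE 0.199, limma adjusted p = 0.256) and -0.65 (SE 0.218, limma adjusted p = 0.101), and Rnh1 at 0.25 (SE 0.288, limma adjusted p = 0.688) and 1.13 (SE 0.316, limma adjusted p = 0.0604).

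Markers of other cell types moved beside these results, and their part in them was not tested. Of 16 neutrophil probes, 6 were called lower in the papilloma stage and 7 in the tumor stage, and 5 probes were lower in both, of the granule genes Camp, Ltf, Mmp8 and Ngp. In the tumor stage the calls included Ly6g, at -2.09 (SE 0.327, limma adjusted p = 0.00894), and Lcn2, at -1.46 (SE 0.256, limma adjusted p = 0.013). Mpo, called in the papilloma stage at -2.28, was at 1.20 from the scanner files after ComBat. The log2 summed level of the neutrophil probes was 20.1 in papilloma skin and 20.3 in tumor skin, against 19.7 in papilloma and 19.9 in tumor. Of 26 monocyte and macrophage probes 3 and 4 were called lower, Emr1 and Retnla in both stages, and the summed log2 level was 17.7 to 18.0, 17.4 to 17.6, 17.3 to 17.6 and 17.2 to 17.3 in papilloma skin, tumor skin, papilloma and tumor. This sum was led by Nr4a1, with a mean log2 level of 16.7, so it says little about the dimmer markers. Retnla, which encodes a resistin-like protein, was at -4.95 (SE 0.255, limma adjusted p = 0.000121) and -4.98 (SE 0.279, limma adjusted p = 0.000430).

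Keratinocyte markers went the other way. Of 17 probes 3 rose in papilloma and 4 in tumor, those of Krt6a, Krt6b and, in tumor, Krt14, with a summed log2 level of 13.4 to 13.9 in papilloma skin and 13.1 to 14.04 in tumor skin, against 14.3 to 15.4 in papilloma and 14.4 to 16.1 in tumor. Of 13 mast cell and basophil probes 1 was called higher in papilloma (Mcpt8, a basophil protease) and 0 in tumor. In tumor 5 had an unadjusted p under 0.05 by limma, beside 14997 of all 55681 probes. Ms4a2 was well above background on 0 arrays. None was called lower in either stage. Tpsab1, at 1.73 in papilloma (limma adjusted p = 0.0102), missed a call by its mean level of 5.86. The summed log2 levels were 17.1 to 17.4, 17.1 to 17.2, 17.3 to 17.5 and 17.1 to 17.4 in the same group order. That sum is almost wholly Hdc, with a mean log2 level of 17.2 against 9.30 for Kit, the next brightest. It therefore says little about the other markers. Of 13 T and NK cell probes 1 was called lower in each stage, Nkg7 in papilloma (-2.14, but -0.0097 from the scanner files after ComBat) and Cd3d in tumor. A second, brighter Nkg7 probe was at -0.27 in papilloma (limma adjusted p = 0.467) and was not called. The summed log2 level of the 13 probes was 13.5, 13.5 to 13.8, 13.0 to 13.4 and 13.0.

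The genes most like Ear2 across the 9 columns were, besides Ear1, Ear12 and Ear10, the granzyme gene Gzmc (Pearson's r 0.997), Gapt (0.995), Ear11 (0.990), Daglb (0.987) and Emr1 (0.986), among 28870 other probes at the level minimum. Gzmc had mean log2 levels of 13.5 in papilloma skin and 12.3 in tumor skin, against 8.49 in papilloma and 8.25 in tumor, a wider range than that of Ear2. Daglb, a diacylglycerol lipase, spanned only 9.70 to 8.45. Ccr3 and Il5ra ranked 96 and 314 among the gene names of these probes, each by its best probe, with r of 0.951 and 0.910. The columns share 4 groups, and these values are a description.

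**Figure D5:**
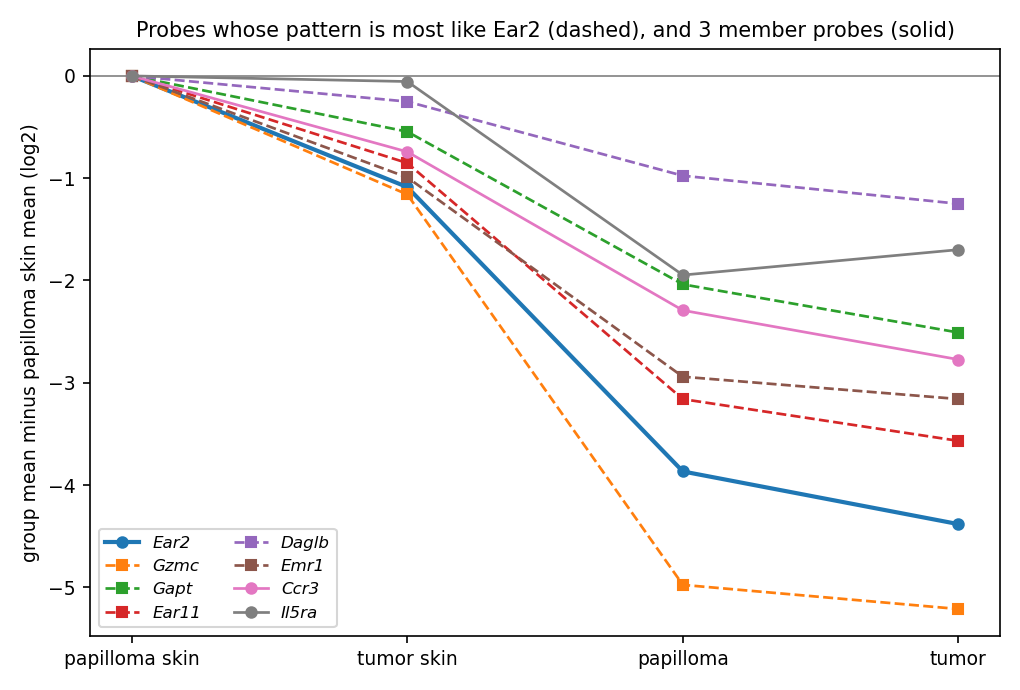
Mean log2 level of each group minus that of papilloma skin (vertical axis) for Ear2, Ccr3 and Il5ra (solid) and for the 5 other genes most like Ear2 (dashed). Gzmc falls furthest, from 13.5 to 8.25, Daglb least, and Il5ra is alone in a level tumor skin value.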

How the data were processed

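Neutrophil RNA, labeled with Cy3, was measured on Agilent mouse arrays with a single color. Per the file headers, the scanner files hold spot intensity that Feature Extraction background-subtracted, unscaled between arrays. The authors also deposited 1 log2 value per probe and array, and their methods name quantile normalization and ComBat for the chip without stating which steps the table holds. Groups came from the sample labels.

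The log2 table was fitted with limma 3.58.1 in R 4.3.3 on 4 group means, 9 arrays and 55681 probes, leaving 5 residual degrees of freedom. Calls needed an adjusted p of at most 0.05, a log2 change of 1 or more and a mean level of 6 or more. Scanner signals of 55155 probes were fitted as alternatives, with a separate implementation of ComBat. The fits were tested on simulated data. Python 3.11.15, pandas 2.3.3 and matplotlib 3.10.9 were used. Fold changes are described for member probes with a mean level of at least 6 that were well above background on 1 of 2 or 2 of 3 arrays of a group, and the 5 genes most correlated with the brightest member are named. List genes are named by whether they were called, then by level. The members, lists and rules were chosen with earlier results of these data known. No column of comparisons was used. In all, 14 alternatives and leaving out each of the 9 arrays were tried.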

Additional observations from a re-analysis of the deposited data

How the results depend on the processing

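Leaving out each array in turn kept the count of called member probes at 6 in papilloma versus papilloma skin, in tumor versus tumor skin and in lesions versus skin, and at 0 in the other contrasts. The same counts held under the 8 alternatives on the value table, which concerned slide, scaling, filters, probes or genes as the unit, the variance prior, the replicate block and leaving out the columns papilloma skin 1 and tumor 1. Whether the replicate numbers pair the samples is not known. Correlations between deviations of same-numbered arrays were -0.96 to 0.53. Between a lesion and its own skin they were 0.16 and 0.53 for papilloma and 0.39 for tumor. In a group of 2 arrays the deviations mirror each other, so these values cannot decide it. With the replicate block the counts were 6, 6 and 6. Calls over all probes went from 1769 to 552 in the papilloma stage and from 2346 to 737 in the tumor stage. Of the 276 fold changes of the 6 probes in the papilloma and tumor stage over all alternatives and left-out arrays, 276 kept their direction and 224 their call. Of the kept calls, 96 came from the value table alternatives and 108 from left-out arrays, which all reuse the same values. The scanner files kept 20 calls and lost 52. A filter, the variance prior or leaving out an array of other groups could not change a fold change, so those directions were fixed beforehand. Between the skins and between the lesions directions turned with the source, as for Ear1 and Ear10 in all 6 scanner fits of tumor skin versus papilloma skin.

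From the scanner files, slide removal with ComBat gave 6 and 4 called probes in the papilloma and tumor stage with either background correction. Without slide correction, with slide as a term, with scaling to the 75th percentile and with the 6 full-range arrays, 0 member probes were called in papilloma versus papilloma skin, tumor versus tumor skin and lesions versus skin. These 4 fits called 0 probes on the whole array, and the cause was not tested. Prg2 changed sign. In tumor versus tumor skin, where the value table gave 0.64, the scanner files gave -2.19 after ComBat, -2.24 with slide as a term, -1.94 without slide correction, -1.65 with 75th percentile scaling, -0.77 with normexp and ComBat, and -2.21 from 6 arrays. In papilloma versus papilloma skin, where it gave -1.06, they gave 0.0264 with slide as a term and 0.11 from 6 arrays. Dim signals limit Prg2 and Epx, and pooled arrays with 2 or 3 per group limit every test.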
